A study of Rattus norvegicus with 5 samples.

Results

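Mitosis, spindle and cytokinesis genes were read in FRT cells, an epithelial line from the thyroid of the Fischer rat, grown as 3D follicles or as 2D monolayers. The set held 60 genes picked by name for their known roles in cell division, and 46 of them could be matched by RefSeq accession to a probe, among 15154 genes so matched. The other 14 genes, Cdc25c, Plk4, Melk, Bub1b, Cenpe, Cenpk, Spc24, Kif4a, Top2a, Ncapd2, Ncapg, Ncaph, Ect2 and Anln, were not analysed here. In the 3D cultures single cells had been embedded in Matrigel, a basement membrane gel, where they form hollow spheres around a central lumen, and the 2D cultures were confluent monolayers. RNA was taken on the fifth day of culture. On 4 Agilent arrays with 2 colours Cy5 marked a different 3D replicate each time and Cy3 a pool made from 4 2D cultures. On the dye-swapped array Cy5 marked the 2D pool and Cy3 pooled 3D RNA. No genotype, drug or other agent differed between the groups in the labels, and the 2D side was the same kind of pool on all 5 arrays, so the spread between replicates is that of the 3D cultures and the arrays. The pooled 3D RNA of the dye-swapped array is not a further independent culture, so n = 5 below counts arrays and not cultures.

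A dividing cell makes cyclin B and the kinase Cdk1, which together drive entry into mitosis. Polo-like and Aurora kinases then build the spindle, kinetochores tie the chromosomes to it, a checkpoint holds the anaphase-promoting complex back until all chromosomes are attached, and motor proteins and the contractile ring part the daughter cells. The messenger RNAs of these proteins are made mainly in the G2 and M phases of the cell cycle and are low in cells that have stopped dividing. In RNA from whole cultures, fewer dividing cells and less of a transcript per dividing cell cannot be told apart.

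Transcripts of the mitotic machinery were lower in 3D follicles than in 2D monolayers across nearly the whole set. Values below are log2 ratios of 3D over 2D, so that -1 stands for a 2-fold lower level in 3D and 0 for no difference, taken after an offset of 50 had been added to the background-corrected signals. By limma over the 5 arrays at a false discovery rate (FDR) of 0.01, 43 of the 46 measured genes (93.5%) fell and 0 rose, and 0 rose at an unadjusted p under 0.05 either. Over all genes 11.4% fell and 14.4% rose. When ratios were only median-centred, without loess, 0 of the 46 genes and 0 of all genes passed, and the median over the 46 genes was -0.59. Of the 46 genes, 45 had a ratio below 0 on all 5 arrays, against 16.9% of all genes (Hmmr, at background on every array, is among the 45), and 26 fell at least 2-fold, against 0.983% of all genes. The median over the 46 genes was -1.10, with -0.85, -1.09, -1.05 and -1.11 on replicates 1 to 4 and -1.05 on the dye-swapped array. The median over all genes was 0.00, and over the 1692 other genes that fell it was -0.40. Ranked by size of decrease, 33 of the 46 lay among the 200 genes with the lowest ratios. Spots were well above background on all 5 arrays in both conditions for 43 of the 46.

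**Figure D1:**
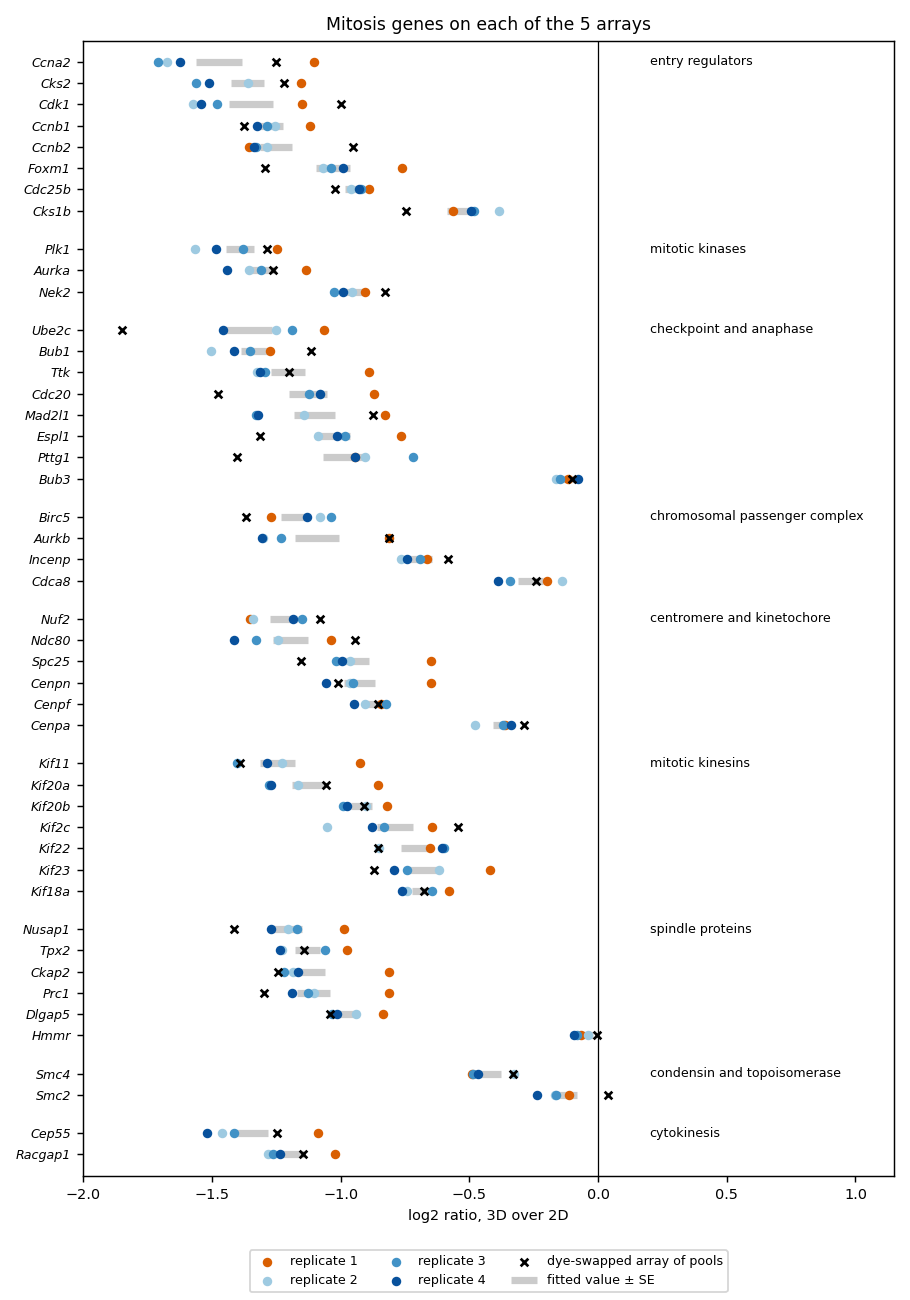
Log2 ratio of 3D over 2D (x axis) of the 46 measured mitosis genes (rows, by function), with 1 point for each of the 4 replicate arrays, a cross for the dye-swapped array of pools, and a grey bar for the fitted value ± SE. Nearly all points lie left of 0, and replicate 1 lies nearest to 0 among the replicates in 34 of 46 rows.

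The promoters of these genes are shown because genes of mitosis are known to share sequence elements there. In mammals many G2 and M phase genes carry a cell cycle homology region (CHR), read by the MuvB complex, and CCAAT boxes, read by the factor NF-Y. RefSeq promoters of build GRCr8 (250 bases before to 50 after the annotated start) were at hand for 53 of the 60 genes, and each was searched on both strands for TTTGAA, the letters of the CHR, and for CCAAT. At least 1 TTTGAA stood in 67.9% of the 53 promoters, against 18.3% of all 33469 promoters and 15.4% of those of the genes measured. CCAAT stood in 75.5% of the 53 against 37.5% of all, 2 or more CCAAT boxes in 50.9% against 11.2%, and both motifs in 54.7% against 7.41%. The median GC content of the 53 windows was 58.3%, against 57.7% for the genes measured and 51.7% for all promoters. In 1 of the 53 windows 2 matches shared bases.

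The 140 bases before the start are printed for 7 genes from different steps of mitosis that fell and hold a CHR match in this stretch, and for Bub3, whose transcript did not pass the test. They run 5′ to 3′ on the gene's own strand, and capitals mark TTTGAA or its complement TTCAAA, and CCAAT or its complement ATTGG. The genes are cyclin B2 (Ccnb2, chr8:79981659-79981798, minus strand), Cdk1 (chr20:19265153-19265292, plus strand), the Cdk1 subunit Cks2 (chr17:13727520-13727659, minus strand), the anaphase activator Cdc20 (chr5:137255800-137255939, minus strand), the kinetochore protein Spc25 (chr3:74396719-74396858, minus strand), the midzone kinesin Kif23 (chr8:71320585-71320724, minus strand), the abscission protein Cep55 (chr1:245245223-245245362, plus strand) and the checkpoint protein Bub3 (chr1:195760392-195760531, plus strand).
Ccnb2: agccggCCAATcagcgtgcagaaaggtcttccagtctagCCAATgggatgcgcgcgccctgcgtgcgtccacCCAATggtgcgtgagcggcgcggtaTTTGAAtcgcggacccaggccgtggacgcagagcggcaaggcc
Cdk1: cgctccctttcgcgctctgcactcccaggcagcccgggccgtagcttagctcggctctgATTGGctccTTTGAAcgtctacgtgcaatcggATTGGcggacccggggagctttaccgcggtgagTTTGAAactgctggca
Cks2: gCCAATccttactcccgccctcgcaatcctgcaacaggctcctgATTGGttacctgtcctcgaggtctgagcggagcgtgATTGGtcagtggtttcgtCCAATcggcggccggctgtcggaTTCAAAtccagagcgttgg
Cdc20: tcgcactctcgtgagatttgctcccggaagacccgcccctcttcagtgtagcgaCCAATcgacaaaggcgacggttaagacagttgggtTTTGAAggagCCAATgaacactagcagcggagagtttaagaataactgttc
Spc25: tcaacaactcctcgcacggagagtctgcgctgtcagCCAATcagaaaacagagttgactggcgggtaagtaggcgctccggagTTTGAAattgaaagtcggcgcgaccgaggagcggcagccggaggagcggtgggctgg
Kif23: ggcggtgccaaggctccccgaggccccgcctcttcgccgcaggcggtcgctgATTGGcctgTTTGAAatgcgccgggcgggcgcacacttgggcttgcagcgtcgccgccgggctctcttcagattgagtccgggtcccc
Cep55: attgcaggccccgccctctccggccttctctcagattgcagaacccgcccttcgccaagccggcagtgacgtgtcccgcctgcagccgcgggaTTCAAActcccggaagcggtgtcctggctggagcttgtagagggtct
Bub3: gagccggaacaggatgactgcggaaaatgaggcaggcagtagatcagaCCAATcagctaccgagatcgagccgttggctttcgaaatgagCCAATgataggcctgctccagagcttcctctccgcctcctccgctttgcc

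In Cdk1 a CHR match began 72 bases and another 16 bases before the start, with CCAAT boxes at 81 and 49. In Ccnb2 3 CCAAT boxes, 134, 101 and 68 bases before the start, preceded a CHR match at 43. Bub3 had CCAAT boxes at 92 and 50 and no TTTGAA in this window, and other spellings of the CHR were not searched for. Over the 53 promoters the CHR matches were most frequent in the 50 bases before the start (28.3% of promoters, against 2.84% of all promoters), and CCAAT in the 50 bases before those (50.9% against 10.8%). A motif match is a run of letters and was not tested for binding. Among the 39 measured genes with a promoter, the median log2 ratio was -1.10 in the 27 with a CHR match, Hmmr included, and -0.96 in the 12 without. For CCAAT the order was the other way, with -0.98 in the 19 genes with 2 or more boxes and -1.07 in the 20 with fewer. Neither difference was tested. The printed genes are a choice: of the 36 genes that fell and had a promoter, 69.4% held a CHR match and 30.6%, Ccnb1 among them, did not. Smc2 and Hmmr, which did not pass the test, held one, 103 and 46 bases before the start.

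**Figure D2:**
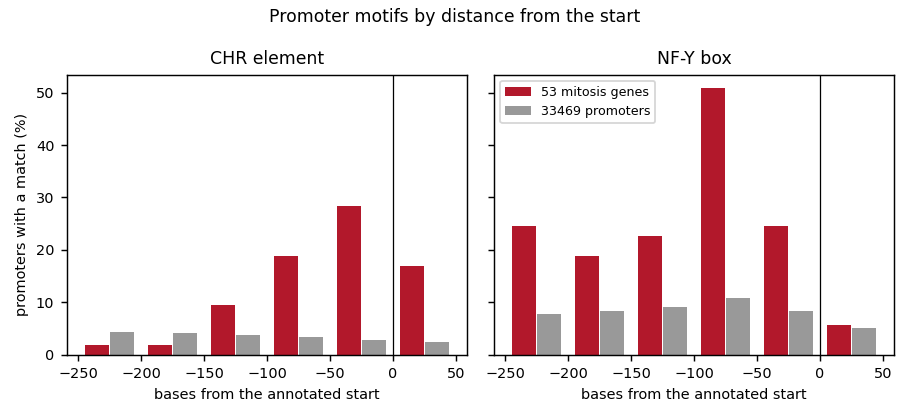
Percentage of promoters with a match to the CHR element (left) and to the CCAAT box read by NF-Y (right) in windows of 50 bases, by distance from the annotated start (x axis, bases), for 53 mitosis genes (red) and all 33469 promoters (grey). The red bars are tallest in the 100 bases before the start, at 28.3% for the CHR and 50.9% for the CCAAT box.

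All 8 measured regulators of mitotic entry fell, with a median of -1.26. Cyclin A2 (Ccna2), which carries cells through S phase into mitosis, had the lowest ratio of the set with the offset of 50, while without the offset Nuf2 was lower (-1.55 against -1.54). Ccna2 gave log2 ratios of -1.11, -1.68, -1.71 and -1.63 on replicates 1 to 4 and -1.25 on the dye-swapped array. It stood at -1.47 ± 0.090 (SE, n = 5 arrays, adjusted p = 1.81e-06), 2.78-fold lower in 3D, and replicate 1 lay well above the other replicates. The ratios of Cks2 were -1.16, -1.36, -1.56 and -1.51 on replicates 1 to 4 and -1.22 on the swapped array. For this small Cdk1-binding protein the fitted value was -1.36 ± 0.064 (SE, n = 5 arrays, adjusted p = 3.76e-07). Cdk1, the kinase itself, was lower by a similar amount. On replicates 1 to 4 Cdk1 stood at -1.15, -1.57, -1.48 and -1.54, and on the dye-swapped array at -0.999. Its fitted value was -1.35 ± 0.085 (SE, n = 5 arrays, adjusted p = 2.2e-06), and the dye-swapped array gave the smallest decrease. Cyclin B1 (Ccnb1), the partner that activates Cdk1, fell too. For Ccnb1 the 4 replicates read -1.12, -1.25, -1.29 and -1.33 and the dye-swapped array -1.38. Its fitted value was -1.27 ± 0.046 (SE, n = 5 arrays, adjusted p = 9.94e-08). Replicates 1 to 4 gave Foxm1 ratios of -0.76, -1.07, -1.04 and -0.99, and the array of pools gave -1.30. This transcription factor, which drives G2 and M phase genes, gave -1.03 ± 0.067 (SE, n = 5 arrays, adjusted p = 2.76e-06). Cyclin B2 (Ccnb2, -1.25), the Cdk1-activating phosphatase Cdc25b (-0.95) and the Cdk subunit Cks1b (-0.53) fell as well.

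The 3 measured mitotic kinases fell, with a median of -1.30. Plk1, the polo-like kinase needed for spindle assembly, centrosome maturation and cytokinesis, fell 2.63-fold. Plk1 gave log2 ratios of -1.25, -1.57, -1.38 and -1.49 on replicates 1 to 4 and -1.29 on the dye-swapped array. The fitted value was -1.39 ± 0.054 (SE, n = 5 arrays, adjusted p = 1.34e-07). Aurora kinase A (Aurka), which acts at the spindle poles, followed. The ratios of Aurka were -1.14, -1.36, -1.31 and -1.44 on replicates 1 to 4 and -1.26 on the swapped array. Over the 5 arrays this came to -1.30 ± 0.050 (SE, n = 5 arrays, adjusted p = 1.3e-07). All 5 arrays of both kinases lay below -1. The centrosome kinase Nek2 fell, at -0.94 with the offset of 50 and -1.38 without it, and with the offset its 4 replicates lay between -1.03 and -0.91.

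Of the 8 measured genes of the spindle checkpoint and of anaphase, 7 fell, with a median of -1.11. Ube2c, the ubiquitin-conjugating enzyme of the anaphase-promoting complex, was lowest on the dye-swapped array. On replicates 1 to 4 Ube2c stood at -1.07, -1.25, -1.19 and -1.46, and on the dye-swapped array at -1.85. The fit gave -1.36 ± 0.098 (SE, n = 5 arrays, adjusted p = 4.88e-06). Bub1, a checkpoint kinase at the kinetochore, fell on every array by more than 2-fold. For Bub1 the 4 replicates read -1.28, -1.50, -1.35 and -1.41 and the dye-swapped array -1.12. Its log2 ratio in the fit was -1.33 ± 0.057 (SE, n = 5 arrays, adjusted p = 2.22e-07). The checkpoint kinase Ttk (-1.21), Cdc20, the target of the checkpoint (-1.13), Mad2l1, which binds Cdc20 (-1.10), separase (Espl1, -1.03), which cuts cohesin, and its inhibitor securin (Pttg1, -0.98) fell too. Bub3, the partner of Bub1, did not pass, although its spots were well above background on every array. Replicates 1 to 4 gave Bub3 ratios of -0.12, -0.16, -0.15 and -0.08, and the array of pools gave -0.10. Fitted over all arrays it was -0.12 ± 0.038 (SE, n = 5 arrays, adjusted p = 0.0346). All 5 arrays lay below 0, and the decrease was 1.09-fold. Bub3 passed in the authors' value table (-0.17, adjusted p = 0.00725) and with the mean of its 2 probes (-0.18, adjusted p = 0.00295).

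All 4 genes of the chromosomal passenger complex, which corrects faulty attachments and directs cytokinesis, fell, with a median of -0.89 and an uneven size. Birc5 gave log2 ratios of -1.27, -1.08, -1.04 and -1.13 on replicates 1 to 4 and -1.37 on the dye-swapped array. This gene, survivin, gave -1.18 ± 0.055 (SE, n = 5 arrays, adjusted p = 3.4e-07), and it was 1 of the 6 genes in the set whose replicate 1 lay below the mean of the other replicates. The ratios of Aurkb were -0.81, -1.30, -1.23 and -1.31 on replicates 1 to 4 and -0.81 on the swapped array. For this gene, the kinase of the complex, the fitted value was -1.09 ± 0.085 (SE, n = 5 arrays, adjusted p = 8.04e-06), with replicate 1 and the dye-swapped array apart from the 3 remaining arrays. The scaffold protein Incenp stood at -0.69. Cdca8 (borealin) fell by a small amount with the offset of 50, -0.26 ± 0.047 (SE, n = 5 arrays, adjusted p = 0.00181), and its ratio was -1.14 with Agilent's processed signals (adjusted p = 0.00672). On replicates 1 to 4 Cdca8 stood at -0.20, -0.14, -0.34 and -0.39, and on the dye-swapped array at -0.24. It was below 0 on all 5 arrays, and did not pass without replicate 3 (-0.24, adjusted p = 0.0117) or without replicate 4 (-0.23, adjusted p = 0.0114).

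All 6 measured centromere and kinetochore genes fell, with a median of -0.94. Ndc80 and Nuf2 are the pair of long proteins that hold microtubules at the kinetochore. For Nuf2 the 4 replicates read -1.35, -1.34, -1.15 and -1.19 and the dye-swapped array -1.08. The fitted value was -1.22 ± 0.051 (SE, n = 5 arrays, adjusted p = 2.02e-07). Replicates 1 to 4 gave Ndc80 ratios of -1.04, -1.25, -1.33 and -1.41, and the array of pools gave -0.95. Over the 5 arrays this came to -1.20 ± 0.069 (SE, n = 5 arrays, adjusted p = 1.28e-06). Both were more than 2-fold lower in the fit. Spc25 (-0.96), of the same complex, Cenpn (-0.93), which binds centromeric chromatin, and Cenpf (-0.87), a protein of the outer kinetochore, fell as well. Cenpa, the histone H3 variant that marks centromeres, fell at -0.37 with the offset of 50 and at -1.48 with Agilent's processed signals, and was well above background in 3D on 3 of 5 arrays.

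All 7 measured mitotic kinesins fell, with a median of -0.79. Kif11, the motor that pushes the spindle poles apart, and Kif20a, a motor of the central spindle and midbody, were below -1 with the offset of 50. The order of the kinesins depended on that offset, since without it Kif20b (-1.32), Kif2c (-1.24) and Kif18a (-1.09) were below -1 too. Kif11 gave log2 ratios of -0.93, -1.23, -1.40 and -1.29 on replicates 1 to 4 and -1.39 on the dye-swapped array. The fit gave -1.25 ± 0.068 (SE, n = 5 arrays, adjusted p = 9.23e-07). The ratios of Kif20a were -0.85, -1.17, -1.28 and -1.27 on replicates 1 to 4 and -1.06 on the swapped array. Its log2 ratio in the fit was -1.12 ± 0.064 (SE, n = 5 arrays, adjusted p = 1.18e-06). In both genes replicate 1 lay nearest to 0. With the offset the remaining motors were Kif20b (-0.92), also of the midzone, the microtubule depolymerase Kif2c (-0.79), Kif22 (-0.71), which moves chromosome arms, Kif23 (-0.69), of the centralspindlin complex, and Kif18a (-0.68), which limits chromosome oscillation.

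Of the 6 measured spindle proteins, 5 fell, with a median of -1.12. Nusap1, which bundles microtubules near chromosomes, fell on all 5 arrays. On replicates 1 to 4 Nusap1 stood at -0.99, -1.21, -1.17 and -1.27, and on the dye-swapped array at -1.42. Fitted over all arrays it was -1.21 ± 0.059 (SE, n = 5 arrays, adjusted p = 4.62e-07). Tpx2, the activator of Aurora A on the spindle, had a similar value. For Tpx2 the 4 replicates read -0.97, -1.23, -1.06 and -1.24 and the dye-swapped array -1.14. The fitted value was -1.13 ± 0.049 (SE, n = 5 arrays, adjusted p = 2.43e-07). Replicate 1 was the highest replicate in both. The spindle protein Ckap2 (-1.13), the midzone bundler Prc1 (-1.11) and Dlgap5 (-0.97), which steadies kinetochore fibres, also fell. Hmmr, a microtubule-binding protein of the spindle poles, did not rise well above background on any array, 3D or 2D, and no fold is given for it.

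Of the condensin genes, which compact the chromosomes, Smc4 and Smc2 were measured, and Smc4 alone passed. Replicates 1 to 4 gave Smc4 ratios of -0.49, -0.33, -0.49 and -0.47, and the array of pools gave -0.33. Over the 5 arrays this came to -0.42 ± 0.044 (SE, n = 5 arrays, adjusted p = 5.88e-05). Smc2, its partner, was not well above background in 3D on any array and was so in 2D on 2 of 5. Its fitted ratio, 1.09-fold lower in 3D (adjusted p = 0.0673), thus rests on spots near background. Without the dye-swapped array it passed (-0.17, adjusted p = 0.00563). Both cytokinesis genes fell. Cep55, which recruits the abscission machinery to the midbody, fell 2.54-fold, and Racgap1, a subunit of centralspindlin, 2.28-fold. Cep55 gave log2 ratios of -1.09, -1.46, -1.42 and -1.52 on replicates 1 to 4 and -1.25 on the dye-swapped array. The fit gave -1.35 ± 0.064 (SE, n = 5 arrays, adjusted p = 3.9e-07). The ratios of Racgap1 were -1.02, -1.28, -1.27 and -1.24 on replicates 1 to 4 and -1.15 on the swapped array. Its log2 ratio in the fit was -1.19 ± 0.049 (SE, n = 5 arrays, adjusted p = 1.8e-07). The arrays of both genes all lay below -1.

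**Figure D3:**
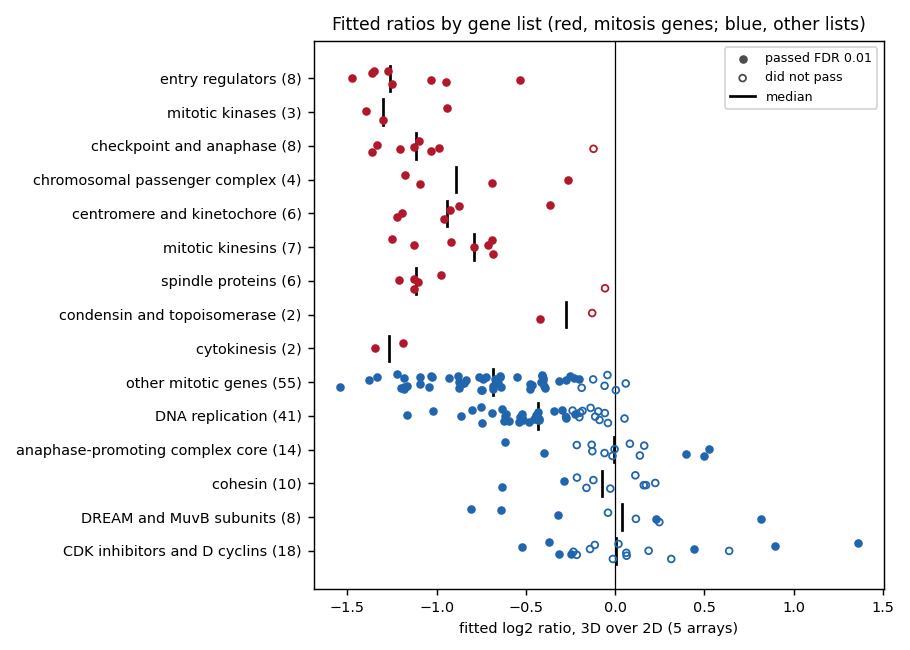
Fitted log2 ratio of 3D over 2D over 5 arrays (x axis) for each measured gene, by list, with the number of genes in brackets. Filled points passed an FDR of 0.01, open points did not, red points are the mitosis genes, blue points other cell cycle lists, and black lines are medians, which lie between -1.30 and -0.27 for the groups of mitosis genes.

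Replicate 1 showed a smaller decrease than the other 3D replicates over most of the set. This replicate had been singled out with earlier results of these data known, so the counts here are a description only. It was the highest of the 4 replicate arrays in 34 of 46 genes (73.9%), against 28.1% of all genes and 37.9% of all genes that fell. Replicates 2, 3 and 4 were the highest in 5, 5 and 2 genes. The ratio on replicate 1 minus the mean of the other 3 had a median of 0.23 over the 46 genes, from -0.19 in Birc5 to 0.57 in Ccna2, and it was above 0 in 40 of 46, against 49.1% of all genes. For the other genes that fell the median was 0.01. By limma on the 4 replicate arrays, with replicate 1 assumed to vary like the others, 0 of 46 genes passed an FDR of 0.01, where 0.0198% of all genes passed as higher in replicate 1. At an unadjusted p under 0.05, 23 of 46 were higher in replicate 1 and 0 lower, against 5.54% higher over all genes. The members share 1 RNA sample per array and are not separate evidence of the difference. The array of replicate 1 lay in another row of the slide than the other 4 arrays, so replicate and slide row cannot be told apart. Without replicate 1 the count of genes that fell was 43 and the median -1.16.

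**Figure D4:**
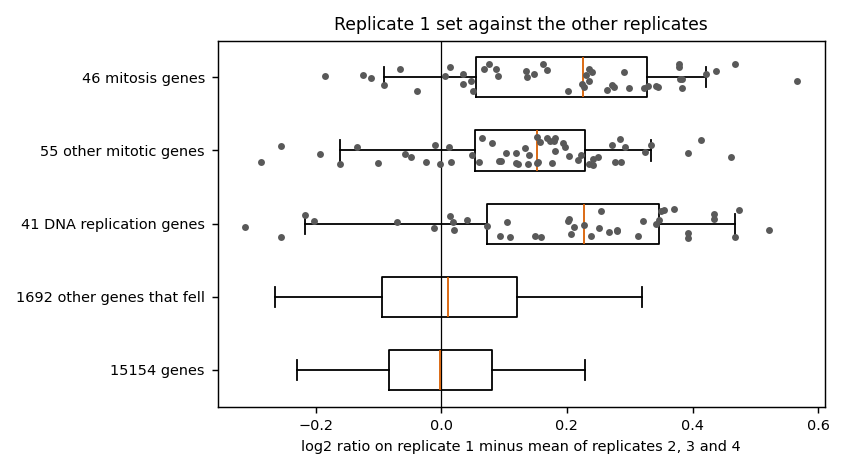
Log2 ratio on replicate 1 minus the mean of replicates 2, 3 and 4 (x axis) for the 46 mitosis genes, 55 other mitotic genes, 41 DNA replication genes, the 1692 other genes that fell and all 15154 genes. Boxes give quartiles with the median in orange, whiskers the 5th and 95th percentiles and dots single genes. The medians are 0.23 for the mitosis genes, 0.23 for the DNA replication genes, 0.15 for other mitotic genes and 0.00 for all genes.

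The dye-swapped array, on which the pooled 3D RNA carried the other dye, gave a ratio below 0 for 45 of 46 genes, the exception being Smc2 at 0.04. Its ratio lay within the range of the 4 replicates in 18 genes, below all of them in 16 and above all in 12, and it minus the replicate mean had a median of 0.02, from -0.61 in Ube2c to 0.44 in Cdk1. A dye term fitted by limma passed for 0 of 46 genes at an FDR of 0.01, against 1.9% of all genes. At an unadjusted p under 0.05 the dye term passed for 14 of the 46 genes. The share of all genes at that unadjusted threshold is not given here, so the 14 are a description only. With that term in the fit, 43 genes fell, with a median of -1.12. Across all genes the 4 replicate arrays correlated with each other at r from 0.871 to 0.946 and with the dye-swapped array at 0.734 to 0.765, over genes, which are not independent.

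The size of the decrease depended on how background was handled. The offset of 50 that was added to each background-corrected signal pulls the ratios of dim spots towards 0. Without it the median of the 43 genes that fell went from -1.11 to -1.24 and 36 of them, in place of 26, were at least 2-fold lower. With Agilent's processed signals 38 were. Without the offset Cenpa went from -0.37 to -0.87 and Smc4 from -0.42 to -0.69. Cdca8 went from -0.26 to -0.62 and no longer passed (adjusted p = 0.0122). With the processed signals Cenpa stood at -1.48, Kif20b at -1.49, Kif2c at -1.48 and Nuf2, then the lowest of the set, at -1.69, so the order of the genes by size changed with this choice. The ratio of Bub3 was -0.14 without the offset, so its decrease stayed small.

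**Figure D5:**
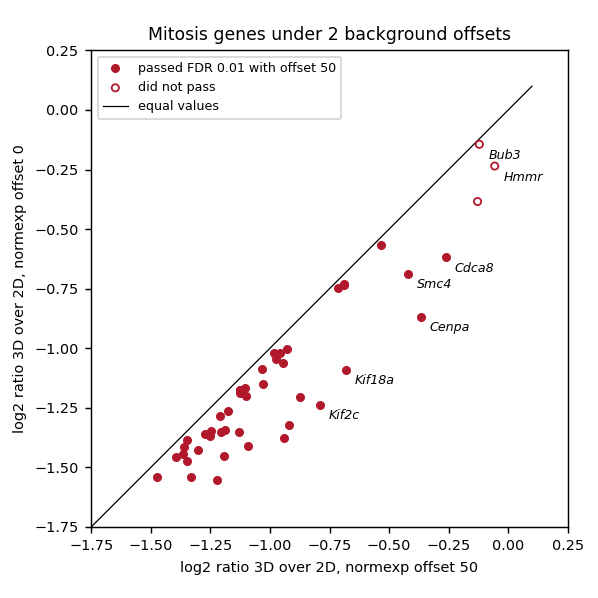
Log2 ratio of 3D over 2D of the 46 mitosis genes with a background offset of 50 (x axis) and of 0 (y axis), with a line of equal values. Filled points passed an FDR of 0.01 with the offset of 50, and the points farthest below the line, among them Cenpa and Kif2c, are genes whose decrease was larger without the offset.

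For 11 genes a second probe could be read, and both probes of each lay below 0. In 9 of the 11 they differed by less than 1.5-fold. The second probe of Bub1 gave -0.18 and was well above background on 1 array in 3D and 2 in 2D, against -1.33 for the brighter probe, and that of Prc1 gave -0.49 against -1.11. The second probe of Cks1b gave -1.02 against -0.53, a larger decrease, and that of Ccna2 -1.48 against -1.47.

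Genes that work beside the set were read from further lists. Of 55 other measured mitotic genes, 49 fell and 0 rose by limma, with a median of -0.68, and 0 rose at an unadjusted p under 0.05. The lowest were the kinetochore protein Cenpt (-1.54, adjusted p = 4.91e-06), the spindle orientation protein Sapcd2 (-1.38, adjusted p = 5.86e-07) and Cdca3 (-1.34, adjusted p = 9.74e-08), which serves the degradation of the Wee1 kinase. Of 41 DNA replication genes 29 fell and 0 rose (0 at an unadjusted p under 0.05), with a median of -0.43 and the lowest values in the ribonucleotide reductase subunit Rrm2 (-1.17, adjusted p = 1.03e-06), thymidine kinase Tk1 (-1.02, adjusted p = 4.43e-06) and Dbf4 (-0.86, adjusted p = 2.27e-06), which activates the Cdc7 kinase. Replicate 1 minus the other replicates had a median of 0.15 in the other mitotic genes and 0.23 in the replication genes. These shares of genes that fell stand beside 11.4% of all genes.

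The core of the anaphase-promoting complex, which is present through much of the cell cycle, did not move one way, and its shares of genes that fell (14.3%) and rose (21.4%) stand beside 11.4% and 14.4% of all genes. Of its 14 measured genes 2 fell, Anapc15 (-0.62, adjusted p = 1.18e-05) and Anapc7 (-0.40, adjusted p = 0.00127), and 3 rose, the scaffold subunits Anapc4 (0.53, adjusted p = 7.53e-06) and Anapc1 (0.39, adjusted p = 8.99e-05) and the cullin subunit Anapc2 (0.50, adjusted p = 6.91e-06), with a median of -0.01. Of 10 cohesin genes 2 (20.0%) fell, sororin (Cdca5, -0.63, adjusted p = 6.28e-05), which protects cohesion until mitosis, and Pds5b (-0.29, adjusted p = 0.00176), and 0 rose by limma (3 at an unadjusted p under 0.05). Among the 8 subunits and partners of the DREAM and MuvB complexes, which repress and then activate mitotic promoters, the activating B-Myb (Mybl2, -0.81, adjusted p = 9.16e-05), the DNA-binding MuvB subunit Lin54 (-0.64, adjusted p = 8.83e-06) and the E2F partner Tfdp1 (-0.32, adjusted p = 0.000198) fell, while the repressive pocket protein p130 (Rbl2, 0.82, adjusted p = 8.84e-06) and Tfdp2 (0.23, adjusted p = 0.00139) rose. Of 18 CDK inhibitors, G1 cyclins and their partners 4 (22.2%) fell and 3 (16.7%) rose, beside 11.4% and 14.4% of all genes. The G1 inhibitor p15 (Cdkn2b, 1.36, adjusted p = 8.76e-08), cyclin G2 (Ccng2, 0.89, adjusted p = 7.3e-06), a cyclin of resting cells, and the retinoblastoma gene Rb1 (0.44, adjusted p = 0.000307) rose, and the inhibitor p19 (Cdkn2d, -0.52, adjusted p = 1.13e-05), Cdk2 (-0.37, adjusted p = 9.85e-05) and Cdk6 (-0.32, adjusted p = 0.00561) fell.

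Markers were read to check the label of the cells. By limma 4 of 16 thyroid and epithelial genes (25%) rose, against 14.4% of all genes. Of the 16, 0 fell (1 at an unadjusted p under 0.05), against 11.4% of all genes. Among the 4 that rose were the tight junction protein occludin (Ocln, 0.88), the thyroid transcription factor Pax8 (0.71) and cadherin-16 (Cdh16, 0.53). Pax8 read 0.65, 1.02, 0.91 and 0.92 on replicates 1 to 4 but 0.05 on the dye-swapped array. With a dye term in the fit its ratio was 0.46. Dye and pooling cannot be told apart on that single array, so the size of the Pax8 increase is uncertain. The thyroid transcription factors Foxe1 and Hhex were well above background in both conditions, whereas thyroglobulin (Tg), the TSH receptor (Tshr) and the iodide transporter (Slc5a5) were not so on any array in either. Of the markers of other cells, 1 of 8 fibroblast genes (12.5%) rose (Pdgfra, 0.55) and 0 of 5 endothelial genes passed (0 at an unadjusted p under 0.05). Of the leukocyte genes 1 of 6 (16.7%) fell (Lyz2, -0.20, well above background on 1 array in 3D and 2 in 2D). The fibroblast and leukocyte shares lie near those over all genes. Of these markers, 4 of the 8 fibroblast, 1 of the 5 endothelial and 2 of the 6 leukocyte genes were well above background on at least 1 array. Col1a1, Col3a1 and Pdgfra were so on all 5 arrays in both conditions, Col1a2 on 5 arrays in 3D and 4 in 2D, and Cdh5 on 5 in 3D and 3 in 2D. Ptprc and Pecam1 were at background in 3D and 2D. The part of other cell types in the results above was not tested.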

How the data were processed

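Spot and local background intensities were deposited by the authors as median pixel values of each array, unnormalized, as read by Agilent Feature Extraction 10.7.3.1 per the file headers, along with processed intensities (background-subtracted and dye-normalized by that software) and its log10 ratios of Cy5 over Cy3. The authors' value table holds log2 ratios made with limma by normexp, loess and quantiles, and all 5 columns ran 3D over 2D, with r from 0.739 to 0.779 against the scanner log10 ratios turned to that direction and from 0.995 to 0.998 against the values computed here, and medians from -0.0064 to 0.0011. The log10 ratios entered only that check.

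Here, in R 4.3.3 with limma 3.58.1, the median signals were corrected by normexp (offset 50), normalized by loess within arrays with control and outlier spots at weight 0, and scaled by quantiles of the average intensities. Spots of a probe were averaged, flagged outliers left out (1.12% to 1.60% of spots per array), and 0 spots were saturated. Of 30367 probes, 17998 (59.3%) were paired with a rat symbol through the RefSeq table of build GRCr8 by accession without version. For each gene the brightest probe was kept, and no gene was filtered for low signal. Precision is limited by the number of arrays.

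A limma model with a single coefficient, for which the dye-swapped ratios had been reversed in sign, was fitted over 5 arrays to all 15154 genes, with Benjamini-Hochberg adjustment at an FDR of 0.01. The dye-swapped array, made of pooled RNA and so no further independent culture, had the same weight as a replicate. Replicate 1 was set against replicates 2 to 4 in another fit, and a dye term was added in a further one. If no array of a condition was well above background for a gene, the dim side was raised to at least the lowest signal well above background. This left the fold of Smc2 unchanged. The scripts were tested on simulated data. Each of the 46 measured genes is named. Full values are given for the 2 genes with the largest change that passed in each of 9 functional groups and for Cdk1, Ccnb1, Plk1, Aurkb, Bub1, Ndc80 and Foxm1, those of Bub3 and Cdca8 being added after their values were seen. In further lists at most 3 genes that rose and 3 that fell are named. The 60 genes, all lists and the comparison of replicate 1 with the others were chosen with earlier results of these data known. Alternatives were another offset, processed signals, median centring, the authors' table, a dye term, a filter on dim probes, the mean of all probes, outlier spots kept, robust moderation, array weights, each array left out, and an FDR of 0.05.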

Additional observations from a re-analysis of the deposited data

Results flagged for a closer look

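In 6 of the 46 genes 1 of the 4 replicates stood apart from the other 3 by Dixon's ratio of gap to range. Chance flags about 1 in 20 independent groups, but the 46 genes share 1 RNA sample per array, so their flags are not separate events. The share flagged over all genes is not given here, so the count is a description only. Replicate 1 was the one apart, nearer to 0 than the others, in 5 of the 6. Its log2 ratio was -1.11 in Ccna2, where the next replicate stood at -1.63, and -0.81 in Aurkb, where the next stood at -1.23. In Ckap2 replicate 1 read -0.81 beside -1.17, in Spc25 -0.65 beside -0.96, and in Ttk -0.89 beside -1.30. In Smc4 it was replicate 2, at -0.33, with the next at -0.47. All 6 genes fell in the fit over 5 arrays. The part of the slide row in these gaps was not tested.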

How the results depend on the processing

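Of the 43 genes that fell, 43 kept the call with Agilent's processed signals, the authors' value table, a dye term, the dim-probe filter, the mean of all probes, outlier spots kept, robust moderation, array weights, and without replicate 1, replicate 2 or the swapped array. Cdca8 lost it without replicate 3, without replicate 4 and with an offset of 0 (42 genes each). The count lay between 42 and 44 with these settings, and with single replicates left out between 42 and 43. With median centring in place of loess, the only alternative without an intensity-dependent correction, 0 of the 46 genes passed, as did 0 of all 15154 genes, and the ratios of Bub3 (0.39) and Cks1b (0.0023) turned above 0. The cause was not tested. No gene rose under any alternative. The median log2 ratio of the 46 genes was -1.29 with processed signals and -0.59 with median centring, and from -1.16 to -1.04 with single replicates left out. The median of replicate 1 minus the others was 0.286 with an offset of 0, 0.291 with processed signals and 0.185 with median centring. In alternatives added after seeing the data, it ran from 0.184 to 0.244 when replicate 2, 3 or 4 was left out of the others. Signal over background limits Hmmr and Smc2 in this set. No paired analysis was possible because every ratio sets 3D RNA against the 2D pool and the dye-swapped array is a single array of pools with no replicate number to pair.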

Other observations

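The cell cycle inhibitor Cdkn2a, chosen after its values were seen, differed between replicate 1 and the other 3D replicates in the direction opposite to the mitosis genes. Its log2 ratio was -0.57 on replicate 1, 0.82, 1.11 and 1.09 on replicates 2 to 4, and 0.73 on the dye-swapped array of pools. Replicate 1 minus the mean of the others was -1.58 (limma, adjusted p = 0.00688 over all genes), and the ratio over 5 arrays, 0.64 ± 0.21 (SE), did not pass an FDR of 0.01 (adjusted p = 0.0409). Its neighbour Cdkn2b rose on all 5 arrays, with 1.20 on replicate 1 and 1.31 to 1.44 on replicates 2 to 4. The inhibitor Cdkn1a read 0.47 on replicate 1 and -0.09 to 0.08 on the other replicates.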
